A study of Mus musculus with 15 samples.

Results

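The effect of rapamycin on PDGF-stimulated fibroblasts was read from 6 of the 15 libraries of the series. By their sample titles, 3 libraries came from H2A-mCherry cells given rapamycin and PDGF (replicates 1 to 3) and 3 from H2A-mCherry cells given PDGF alone (replicates 1 to 3). The cells were NIH3T3, an established line of mouse fibroblasts, in which doxycycline switches on histone H2A joined to mCherry, a red fluorescent protein. In this series that line is the control for a line with a nuclear inhibitor of mTORC1. Both compared groups carried the same H2A-mCherry transgene, and both had been starved before PDGF, so rapamycin was the labelled difference between them. A further 3 starved H2A-mCherry libraries without PDGF are quoted below as the level before stimulation. The doses of rapamycin and PDGF, the times of treatment and whether replicates were separate cultures are not stated in the labels used here. The p-values therefore measure the spread between libraries of a group, estimated over all 15 libraries of the series, and that spread may be technical. By their titles, the remaining libraries were 3 of H2A-mCherry cells and 3 of H2A-TerminaTOR cells, all given cycloheximide and PDGF. They entered the gene filter, the scaling, the estimate of spread and the principal components, but not the compared groups.

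mTORC1 is a protein kinase complex that couples growth factor and amino acid signals to protein, lipid and nucleotide synthesis and that restrains autophagy. Rapamycin binds the immunophilin encoded by Fkbp1a, and the pair docks onto mTOR and blocks part of the kinase activity of mTORC1. PDGF is a fibroblast mitogen whose receptors activate MAPK and PI3K-AKT signalling, upstream of mTORC1, and switch on immediate early genes within minutes to hours.

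Poly(A)-selected RNA was sequenced, and the deposited read counts per transcript were summed per mouse gene. Levels are given as CPM, read counts brought to 1 common library total after TMM scaling (the trimmed mean of M values), as mean ± SD with n = 3, and changes as log2(rapamycin with PDGF over PDGF alone) ± SE. A gene is called higher or lower at an adjusted p under 0.05 from the quasi-likelihood test of edgeR, adjusted by Benjamini-Hochberg over all 10603 genes tested. CPM is not scaled by gene length, and reads shared by several transcripts of a gene may have been dropped in the authors' counting, so levels of different genes are not comparable. Fewer cells of a type and less RNA per cell cannot be told apart in such bulk samples.

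Library totals ran from 3579179 to 4721169 counts with PDGF and from 3494761 to 4652663 with rapamycin. Across genes, log2 CPM correlated at 0.9733 to 0.9784 between PDGF libraries, at 0.9665 to 0.9713 between rapamycin libraries and at 0.9373 to 0.947 between the groups. Mitochondrially encoded genes took 8.69% to 9.29% of counts with PDGF and 9.84% to 11% with rapamycin. The rRNA-annotated CT010467.1 also differed, with 32810, 29890 and 21970 CPM with PDGF and 17000, 6816 and 8212 CPM with rapamycin, without overlap (adjusted p = 0.0139, or 0.0514 and 0.0585 without rapamycin replicate 2 or 3 and 0.0733 when only the 6 compared libraries were fitted). The part of either measure in the results below was not tested. Of the 16 fibroblast markers, 13 could be tested, with Col1a1, Col1a2 and Col3a1 at means of 3683 ± 122, 2466 ± 29.3 and 603 ± 63.6 CPM with PDGF. With rapamycin 2 of the 13 were higher and 6 lower, and the list's summed level was 9144 to 9548 CPM with PDGF and 6695 to 7012 CPM with rapamycin, whose part in the results was not tested. Of 12 macrophage markers, 4 could be tested and 6, Ptprc and Csf1r among them, had no reads in the 6 libraries. The summed level of the macrophage list was 17.57 to 20.71 CPM with PDGF and 22, 23.07 and 24.94 CPM with rapamycin, with Mrc1 called higher (5 and 45 reads) and Lyz2 lower, and its part in the inflammatory genes below was not tested. A single one of the 8 endothelial and of the 8 epithelial markers could be tested, and none of the adipocyte or skeletal muscle markers.

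Rapamycin changed 3430 of the 10603 genes, 32.3% of those tested. Of these, 1724 (16.3%) were higher and 1706 (16.1%) lower, and the list counts below are to be read beside these shares. The median log2 change over all tested genes was 0.02. Library-size scaling in place of TMM moved that median to -0.10 and the counts to 1260 higher and 2265 lower. At least 2-fold changes were called for 608 genes upwards (5.73%) and 561 downwards (5.29%), and at least 4-fold for 157 and 112. In 21.2% of tested genes the 3 rapamycin libraries all lay above the 3 PDGF libraries, and in 19.7% all below. On the plot of level against change, Csf3, Icam1, Gbp2, Ptx3 and Lif were among the largest rises. Hist1h1c and Insig1 were among the largest falls of genes abundant over all 15 libraries. Rapamycin libraries lay apart from the other H2A-mCherry groups on the second principal component of all 15 libraries. Those without PDGF scored 66.7 to 71 and those with PDGF alone -4.8 to 2.01. Those with cycloheximide and PDGF scored -12.4 to -9.8, and those with rapamycin and PDGF -46.1 to -43.9.

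**Figure D1:**
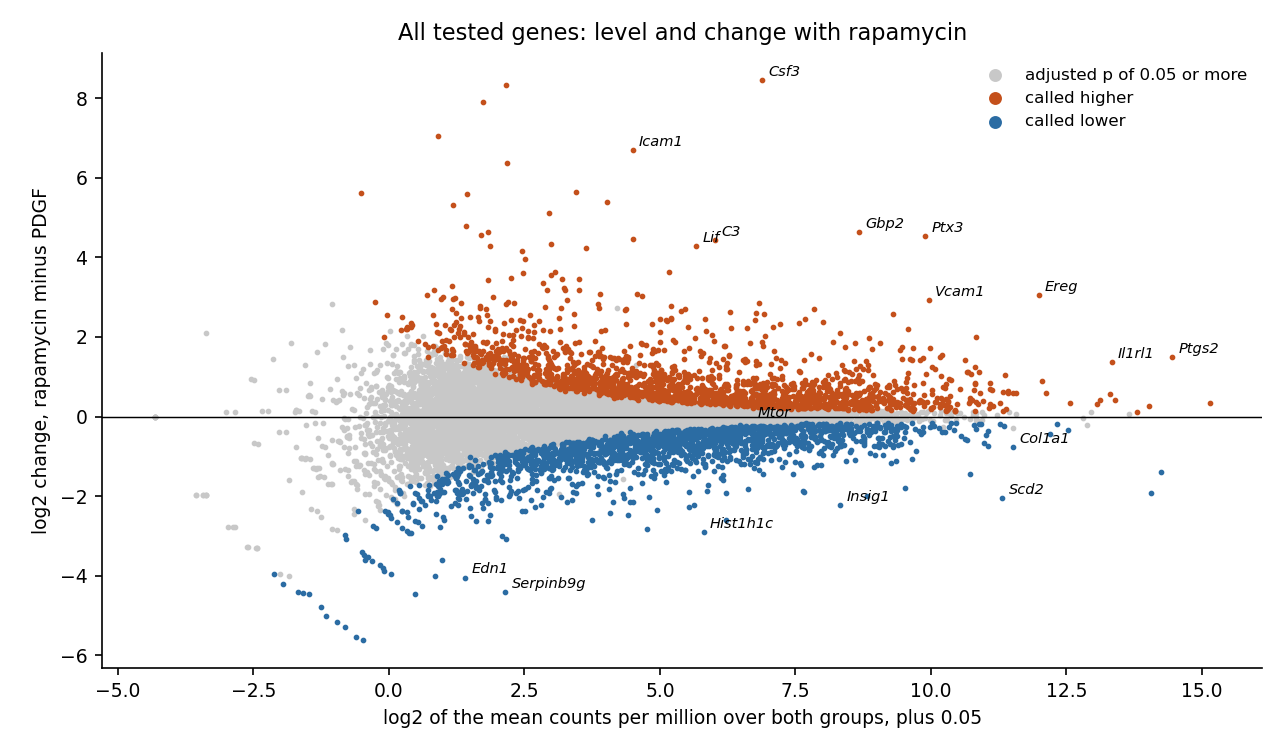
Each point is a tested gene, placed by the log2 of its mean CPM over the 6 libraries plus 0.05 (x axis) and its log2 change with rapamycin (y axis); orange points are called higher, blue lower, grey neither. Labelled rises at the top include cytokine, adhesion and acute-phase genes, and the streaks at the lower left are genes with reads in 1 group only, whose fitted change depends on the prior count.

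**Figure D2:**
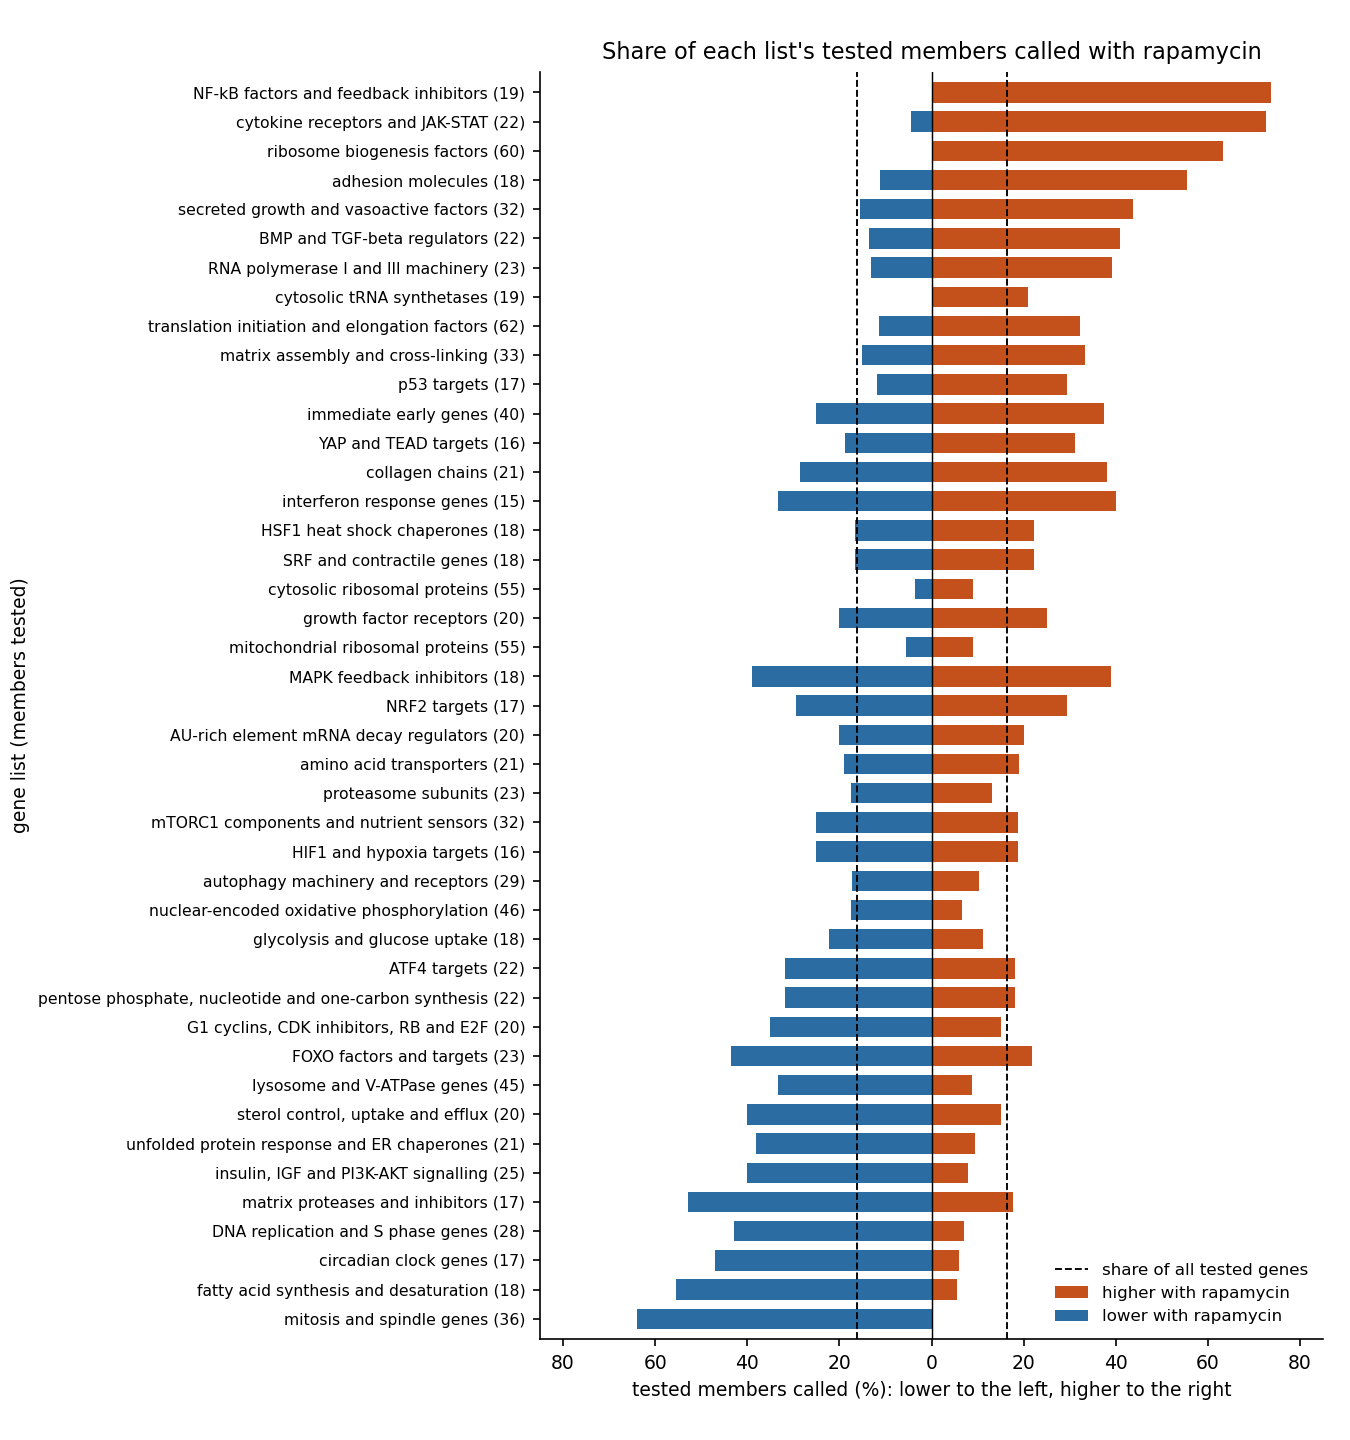
For each gene list with at least 15 tested members (number tested in brackets), bars show the percentage of tested members called higher (right, orange) or lower (left, blue) with rapamycin; dashed lines mark the percentages over all tested genes, 16.3 and 16.1. NF-kB, cytokine receptor and ribosome biogenesis genes stand at the top, and mitosis, fatty acid and circadian genes at the bottom.

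Short stretches of promoters show what members of the groups described below carry upstream of their starts. They are taken from RefSeq promoter windows (GRCm38.p6, 250 bases before to 50 after each start, printed on the gene's strand and upstream of the start only). Counts of genes with a match cover the whole window, including the 50 bases after the start. The first set shows NF-kB-type letters in 4 genes that rose with rapamycin. Capitals mark a match to GGGA, any 4 bases and CC, or to GGG, any 3 bases and TTCC, on either strand; the patterns overlap, and a gene was counted once.

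Nfkbia, chr12:55492657-55492686, minus strand: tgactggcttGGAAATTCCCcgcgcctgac
Rel, chr11:23771042-23771071, minus strand: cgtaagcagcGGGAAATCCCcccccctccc
Cxcl1, chr5:90891164-90891193, plus strand: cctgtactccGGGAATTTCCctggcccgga
Csf1, chr3:107760605-107760634, minus strand: cgggccttgaGGGAAAGTCCctaggggcca

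Such letters stood in 7 of the 11 raised NF-kB genes that have a window and in 7 of 8 raised complement and acute-phase genes. They stood in 8 of 14 raised cytokine receptor and JAK-STAT genes, but in 2 of 9 raised adhesion genes and 2 of 9 raised secreted factors. The share was 25.4% of all 27025 genes with a window and 32.9% of the 6896 tested genes with one. Of the tested ones, 36% of those called higher and 32.4% of those not called had the letters. The second set shows the cell cycle homology region, TTTGAA on either strand, in 4 mitotic genes that fell, with those letters in capitals.

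Mki67, chr7:135716480-135716505, minus strand: agcgccagaaTTTGAAccgccgtttt
Cdc20, chr4:118437346-118437371, minus strand: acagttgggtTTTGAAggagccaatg
Ckap2, chr8:22185905-22185930, minus strand: tttgttcgatTTTGAAatttctcgcc
Kif11, chr19:37376353-37376378, plus strand: gtctccatttTTCAAAattgaggcgc

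The motif was in 19 of 22 fallen mitosis genes with a window, in 20.2% of all genes with a window and in 13.9% of the tested ones. The third set shows the amino acid response element, TGATGNAA on either strand, in capitals, in a pair of ATF4 targets that fell.

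Chac1, chr2:119351039-119351066, plus strand: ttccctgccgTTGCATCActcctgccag
Fgf21, chr7:45615612-45615639, minus strand: gacccccccaTTGCATCAtccgtccagg

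Those letters were in 4 of 6 fallen ATF4 targets with a window, in 4.51% of all genes with a window and in 2.73% of the tested ones. The sterol element TCACNCCAC, searched on both strands, was in none of the 8 fallen cholesterol synthesis genes with a window and in 1.25% of the tested genes. At so low a share, its absence from 8 genes says little. Further letters were searched and are not all given here. E2F letters, TTCCCGC or TTGGCGC, were in 5 of 8 fallen DNA replication genes and 13.9% of tested genes. FOXO letters, GTAAACA, were in 1 of 8 fallen FOXO factors and targets and 2.91% of tested genes. A match is a description of letters in the window, not evidence that a factor binds.

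Secreted inflammatory factors rose. Of 11 cytokines and colony-stimulating factors tested (23 listed), 6 were called higher and none lower, with a median log2 change of 1.37. Csf3 (chr11:98701263-98703629), which encodes the granulocyte growth factor G-CSF, had 1.38, 0.258 and 0.414 CPM with PDGF and 232, 229.8 and 246 CPM with rapamycin. That was 8 reads over the PDGF libraries and 2615 over the rapamycin libraries, a log2 change of 8.44 ± 0.24 (adjusted p = 4.11e-42). Lif, an IL-6 family cytokine, had 5.78, 6.2 and 3.11 CPM with PDGF and 104, 83.4 and 101 CPM with rapamycin. Its PDGF level was itself above that of starved cells (0.121 ± 0.21 CPM), and rapamycin raised it 19.5-fold (log2 4.29 ± 0.23, adjusted p = 9.39e-26). Il11 and Clcf1, of the same family, rose by log2 1.41 ± 0.10 and 1.37 ± 0.13, and Csf1, the macrophage growth factor, by 1.77 ± 0.16 (adjusted p = 2.27e-20, 5.59e-15 and 1.19e-14). Csf2 had 1 read over the PDGF libraries and 47 over the rapamycin libraries, a CPM ratio of 52.4 (95% counting interval 8.96 to 2114, exact). Il6 itself was not called: it averaged 8.09 ± 0.682 CPM with PDGF and 6.09 ± 0.76 with rapamycin (log2 -0.40 ± 0.40, adjusted p = 0.484). Tnf, Il1b and Osm had no reads in the 6 libraries.

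Among chemokines, 6 of 11 tested (25 listed) rose and 1 fell. Ccl2 and Ccl7 attract monocytes and lie in 1 cluster on chromosome 11 (chr11:82035571-82037453 and chr11:82045712-82047525). Ccl2 had 0.826, 1.55 and 1.24 CPM with PDGF and 14.8, 17.2 and 14 CPM with rapamycin (log2 3.62 ± 0.43, adjusted p = 7.65e-11), and neither gene was called higher with PDGF than without it. Ccl5 rose by log2 3.48 ± 0.56 and the neutrophil attractant Cxcl1 by 2.67 ± 0.26, the latter from 5.54 ± 1.38 to 35.2 ± 8.75 CPM (adjusted p = 3.74e-07 and 7.48e-14). Every rapamycin library lay above every PDGF library for these genes. Cxcl2, Cxcl3 and Cxcl5, neutrophil chemokines like Cxcl1, had no reads.

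Cytokine receptor genes rose as well. Of 22 tested receptor and JAK-STAT genes (32 listed), 16 were higher and 1 lower, with a median log2 change of 0.86. Osmr, the oncostatin M receptor subunit, had 278, 254 and 285 CPM with PDGF and 1102, 1364 and 1285 CPM with rapamycin (log2 2.2 ± 0.07, adjusted p = 1.78e-39). Il13ra1 and Il4ra, which pair in the receptor for IL-4 and IL-13, rose 5.99-fold and 6.46-fold (adjusted p = 1.06e-38 and 8.65e-10). Il1rl1, the IL-33 receptor, was already abundant with PDGF and had 5975, 5627 and 5740 CPM with PDGF and 14660, 14930 and 15100 CPM with rapamycin. The groups did not overlap, and the rise was 2.58-fold on top of 1323 ± 73.1 CPM in starved cells. The shared signalling chain Il6st rose by log2 0.90 ± 0.07 and the kinase gene Jak1 by 0.45 ± 0.05 (adjusted p = 5.97e-18 and 1.35e-10), while Stat5a went from 0.799 ± 0.469 to 10.2 ± 0.781 CPM (adjusted p = 2.07e-09). Tnfrsf1b was the member called lower (log2 -0.44 ± 0.09, adjusted p = 2.17e-05).

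SOCS genes encode feedback inhibitors of these receptors. Among the 6 tested (8 listed), 5 rose and none fell. Socs3 had 211, 217 and 248 CPM with PDGF and 486, 482 and 514 CPM with rapamycin (log2 1.13 ± 0.07, adjusted p = 8.58e-24), and Socs5 rose by 1.24 ± 0.06 (adjusted p = 4.31e-29). Cish, a target of STAT5, had no reads in starved cells and went from 8.68 ± 2.84 to 25.1 ± 2.83 CPM (adjusted p = 3.3e-06). Both Socs3 and Cish were higher with PDGF than without it, and higher again with rapamycin.

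**Figure D3:**
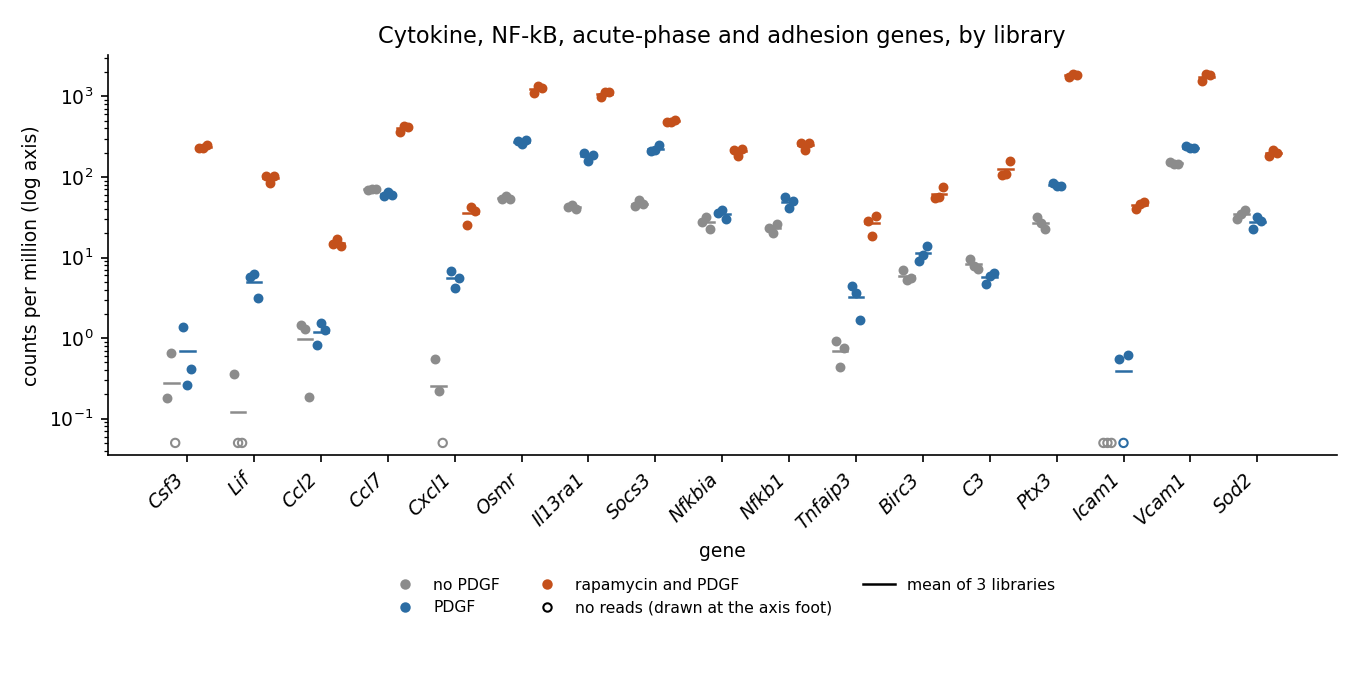
CPM of 17 inflammatory genes (x axis) on a log axis (y axis); dots are libraries, lines means of 3, grey no PDGF, blue PDGF, orange rapamycin and PDGF, and open circles libraries without reads. In each of the 17 genes the 3 rapamycin libraries lie above the 3 PDGF libraries.

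NF-kB is a family of dimeric transcription factors held inactive by IkB proteins, whose genes it induces in turn. Of 19 tested members of this group (25 listed), 14 were higher and none lower, and the median log2 change was 1.56. Among the subunits, Rel had 329, 308 and 339 CPM with PDGF and 1027, 1038 and 1233 CPM with rapamycin, Nfkb1 went from 49.4 ± 7.35 to 247 ± 28.4 CPM and Rela from 97.9 ± 8.15 to 188 ± 13.5 CPM. These were rises of log2 1.76 ± 0.06, 2.32 ± 0.12 and 0.94 ± 0.08 (adjusted p = 7.73e-36, 5.06e-25 and 6.22e-16). The inhibitors rose as well. Nfkbia, which encodes IkB-alpha, had 35.2, 38.5 and 30.4 CPM with PDGF and 213, 183 and 225 CPM with rapamycin (log2 2.58 ± 0.10, adjusted p = 4.98e-33), against 27.3 ± 4.42 CPM in starved cells. Tnfaip3, which encodes the ubiquitin-editing enzyme A20, rose 8.51-fold, and Zc3h12a, an RNase that degrades cytokine mRNAs, 5.52-fold (adjusted p = 1.74e-14 and 3.42e-32). Birc2 and Birc3, neighbouring genes of ubiquitin ligases in TNF receptor signalling, rose by log2 3.18 ± 0.39 and 2.45 ± 0.18 (adjusted p = 5.81e-10 and 5.56e-19). Sod2, the mitochondrial superoxide dismutase and a target of both NF-kB and FOXO factors, had 22.6, 31.5 and 28.6 CPM with PDGF and 184, 215 and 200 CPM with rapamycin (log2 2.85 ± 0.12, adjusted p = 1.56e-31).

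Acute-phase and complement genes followed the same direction, with 9 of 11 tested (29 listed) higher, none lower and a median log2 change of 1.71. Ptx3, a secreted pentraxin that opsonises microbes, had 83.5, 76.5 and 78.3 CPM with PDGF and 1725, 1914 and 1844 CPM with rapamycin (log2 4.53 ± 0.08, adjusted p = 1.29e-54). Complement component C3 had 4.68, 5.94 and 6.42 CPM with PDGF and 106, 109 and 158 CPM with rapamycin, and starved cells had 8.26 ± 1.22 CPM. Its rise with rapamycin was 21.6-fold (adjusted p = 5.16e-32), whereas PDGF alone had no called effect on it (log2 -0.53, adjusted p = 0.0797). The metalloreductase Steap4 rose by log2 4.45 ± 0.32, the ferroxidase Cp by 2.73 ± 0.32 and the complement protease C1ra by 0.96 ± 0.10 (adjusted p = 1.2e-19, 6.23e-11 and 1.32e-12). Lcn2, Saa1 and Cfb, further acute-phase genes, had no reads in the 6 libraries.

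Interferon response genes split. Of 15 tested (46 listed), 6 were higher and 5 lower. The lower count was 3 without rapamycin replicate 1 and 3 without PDGF replicate 2. Guanylate-binding proteins were on the higher side: Gbp2 had 29.7, 31 and 33.4 CPM with PDGF and 666, 867 and 826 CPM with rapamycin and Gbp7 went from 1.47 ± 1.12 to 13.4 ± 2.72 CPM (log2 4.64 ± 0.10 and 3.18 ± 0.45, adjusted p = 4.97e-51 and 2.3e-08). Parp14 and the RNA sensor gene Ddx58 rose by log2 2.19 ± 0.35 and 1.81 ± 0.36 (adjusted p = 4.37e-07 and 3.06e-05). Ifit1, Ifit2 and Isg15, classical type I interferon targets, were on the lower side. Ifit1, which binds foreign RNA, had 36.9, 40.6 and 30.0 CPM with PDGF and 6.13, 9.23 and 4.51 CPM with rapamycin, a fall by 2.46 ± 0.18 on the log2 scale (adjusted p = 1.1e-17). Ifit2 and the ubiquitin-like gene Isg15 fell by 1.38 ± 0.11 and 1.7 ± 0.24 (adjusted p = 1.06e-16 and 1.67e-08). Mx1, Rsad2 and Oasl1, of the same class, had no reads in the 6 libraries.

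Several adhesion molecules that leukocytes use rose. Of 18 adhesion genes tested (26 listed), 10 were higher and 2 lower, or 6 higher with no filter on low counts. Vcam1 had 239, 226 and 229.5 CPM with PDGF and 1535, 1891 and 1862 CPM with rapamycin (log2 2.93 ± 0.07, adjusted p = 8.81e-48). Icam1 had 5 reads over the PDGF libraries and 496 over the rapamycin libraries, or 0.391 ± 0.34 to 44.7 ± 4.58 CPM (adjusted p = 1.41e-22). E-selectin, Sele, had no reads with PDGF and 41 with rapamycin, at least 15.2-fold higher against a floor of 3 reads over the group. The hyaluronan receptor Cd44 and the collagen-binding integrin Itga2 rose 3.48-fold and 18.9-fold (adjusted p = 3.36e-11 and 1.42e-13). N-cadherin, Cdh2, went from 9.92 ± 3.06 to 2.31 ± 0.665 CPM, a log2 fall by 2.1 ± 0.37 (adjusted p = 3.27e-06).

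Some growth factor ligands and Ptgs2 were raised further above the level that PDGF had brought them to. Because both comparisons use the same PDGF libraries, the levels are given side by side and no relation between them is computed. Ereg (chr5:91074622-91093646), an EGF receptor ligand, stood at 43.5 ± 4.55 CPM in starved cells and had 912, 814 and 905 CPM with PDGF and 6967, 7314 and 7443 CPM with rapamycin. Its log2 change with rapamycin was 3.04 ± 0.13 (adjusted p = 4.57e-09). Ptgs2, the inducible cyclooxygenase, stood at 931 ± 77.3 CPM in starved cells and had 11970, 11820 and 11360 CPM with PDGF and 31690, 33000 and 34230 CPM with rapamycin, a further rise by log2 1.49 ± 0.05 (adjusted p = 1.78e-34). The prostaglandin E synthase Ptges and the prostaglandin F receptor Ptgfr were lower with PDGF than without it and rose with rapamycin (log2 0.83 ± 0.09 and 0.91 ± 0.12, adjusted p = 1.02e-11 and 1.06e-08). In all, 4 of 9 tested prostaglandin genes (18 listed) were higher and none lower.

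Of 32 secreted growth and vasoactive factors tested (50 listed), 14 rose and 5 fell, the latter count being 3 without PDGF replicate 2. Hbegf, a second EGF receptor ligand, went from 447 ± 25.7 to 824 ± 22.9 CPM, Inhba (activin A) from 1035 ± 36.8 to 2240 ± 102 CPM and the matricellular gene Ccn1 from 858 ± 35.6 to 2311 ± 139 CPM. Their rises were log2 0.88 ± 0.06, 1.11 ± 0.06 and 1.43 ± 0.13 (adjusted p = 4.03e-20, 6.57e-27 and 6.03e-06). Fgf2 and Hgf, both mitogens, rose by log2 1.72 ± 0.16 and 1.35 ± 0.14, and Angptl4, an inhibitor of lipoprotein lipase, by 3.09 ± 0.29 (adjusted p = 1.82e-14, 6.98e-13 and 1.01e-13). Areg, a further EGF receptor ligand, was not called at 2.26 ± 0.389 and 1.74 ± 0.847 CPM (log2 -0.34 ± 0.62, adjusted p = 0.721). The vasoconstrictor gene Edn1 fell from 60 reads over the PDGF libraries to 3 over the rapamycin libraries, a CPM ratio of 0.0558 (95% counting interval 0.0112 to 0.171). Vegfa was not called (log2 -0.03 ± 0.31, adjusted p = 0.953).

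Immediate early genes moved in both directions: 15 of 40 tested (46 listed) rose and 10 fell. Ier3, an apoptosis regulator, had 1091, 1073 and 1066 CPM with PDGF and 2495, 2483 and 2641 CPM with rapamycin against 39.2 ± 14.8 CPM in starved cells (log2 1.24 ± 0.15, adjusted p = 5.68e-05). Trib1, Klf5 and Fosl1 rose by log2 1.39 ± 0.07, 1.28 ± 0.07 and 1.42 ± 0.37, and Junb by 0.67 ± 0.07 (adjusted p = 5.35e-28, 5.4e-25, 0.00182 and 7.39e-09). Zfp36, which encodes an mRNA-destabilising protein, went from 2.18 ± 0.796 to 11.4 ± 3.21 CPM (log2 2.41 ± 0.39, adjusted p = 5.04e-07). On the lower side, the zinc finger gene Egr3 had 43.8, 40.1 and 42.9 CPM with PDGF and 19.8, 11.1 and 18.5 CPM with rapamycin, and the AP-1 gene Jund had 160.3, 206 and 172 CPM with PDGF and 80.2, 87 and 86.9 CPM with rapamycin. These were falls by 1.34 ± 0.15 and 1.08 ± 0.08 on the log2 scale, without overlap between the groups (adjusted p = 1.25e-11 and 2.77e-15). Egr2 and Fosb fell by 1.19 ± 0.34 and 0.99 ± 0.20 (adjusted p = 0.00419 and 0.00042). Each of these AP-1 and EGR genes stayed above its starved level, which was 1.64 ± 0.78 CPM for Egr3, 0.339 ± 0.328 for Fosb and 60.1 ± 7.8 for Jund. Nr4a1, a nuclear receptor gene, was not called (log2 0.18 ± 0.13, adjusted p = 0.307).

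**Figure D4:**
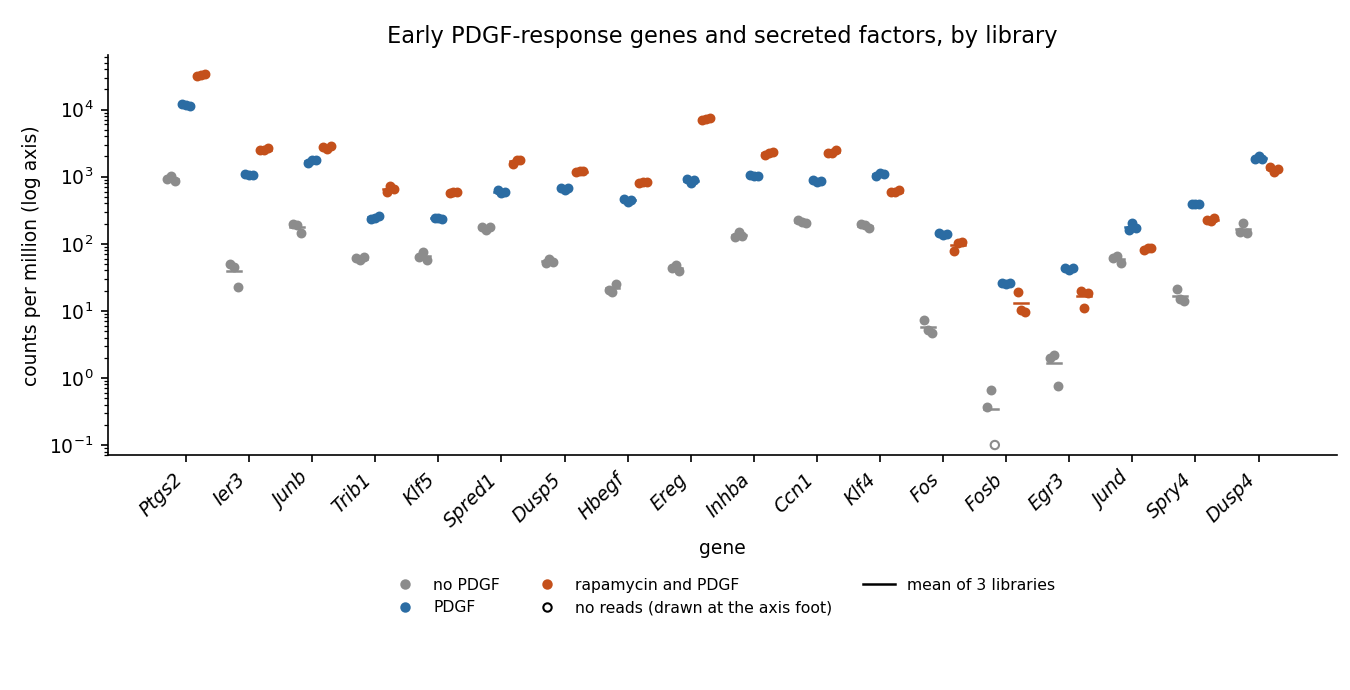
CPM of 18 early response and secreted factor genes (x axis) on a log axis (y axis); dots are libraries, lines means of 3, grey no PDGF, blue PDGF, orange rapamycin and PDGF, and the open circle a library without reads. From Ptgs2 to Ccn1 the rapamycin libraries lie above the PDGF libraries, and from Klf4 to Dusp4 they lie between those with PDGF and those without.

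Feedback inhibitors of MAPK signalling were split too, with 7 of 18 tested (21 listed) higher and 7 lower. Spred1, which holds back RAF activation, had 630.1, 571 and 598 CPM with PDGF and 1538, 1780 and 1767 CPM with rapamycin (log2 1.5 ± 0.06, adjusted p = 2.13e-33). Spry2 and the ERK phosphatase gene Dusp5 rose by log2 0.80 ± 0.06 and 0.84 ± 0.06 (adjusted p = 1.12e-18 and 6.26e-20). Spry4, of the same family as Spry2, went the other way and had 387, 392 and 395 CPM with PDGF and 225, 217 and 238 CPM with rapamycin. It fell by 0.79 ± 0.08 on the log2 scale, Dusp4 by 0.55 ± 0.12 and Il17rd, an inhibitor of FGF signalling, by 1.33 ± 0.30 (adjusted p = 4.9e-14, 0.00434 and 0.000191). Dusp6 was not called (log2 0.37 ± 0.56, adjusted p = 0.67).

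Growth factor receptor genes had 5 of 20 tested (28 listed) higher and 4 lower, the latter being 7 with library-size scaling. The shares over all tested genes were 16.3% higher and 16.1% lower. Egfr, the receptor of Ereg and Hbegf, had few reads and went from 1.8 ± 1.26 to 7.42 ± 2.69 CPM (log2 2.05 ± 0.45, adjusted p = 0.000154). Pdgfra had 12.9, 8.27 and 11 CPM with PDGF and 29.2, 31.1 and 28 CPM with rapamycin (log2 1.45 ± 0.24, adjusted p = 5.11e-07), though its transcript with the most reads, tested as deposited, was not called (adjusted p = 0.261). Pdgfrb, the other PDGF receptor gene, had 3 reads over the PDGF libraries and 7 over the rapamycin libraries and was not tested. Mertk, a receptor for apoptotic cells, fell by 2.29 ± 0.51 on the log2 scale (adjusted p = 0.000174), and Met, the receptor of Hgf, by 0.44 ± 0.11 (adjusted p = 0.000912).

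Genes of cholesterol synthesis fell. Of 14 tested (21 listed), 11 were lower and none higher, with a median log2 change of -1.10. Idi1, an enzyme of isoprenoid synthesis, had 94.5, 118 and 97.8 CPM with PDGF and 47.9, 47.4 and 48.7 CPM with rapamycin, and starved cells had 37.4 ± 8.85 CPM. Its fall was 1.11 ± 0.11 on the log2 scale, without overlap between the groups (adjusted p = 5.78e-13). Sc5d, a desaturase of the late steps, had 44.9, 48.6 and 46.8 CPM with PDGF and 18.7, 12.9 and 21.6 CPM with rapamycin and fell 2.6-fold (adjusted p = 5.4e-12). Fdps, Hsd17b7 and Cyp51, enzymes of the same route, fell by 2.37 ± 0.36, 1.45 ± 0.08 and 0.96 ± 0.06 on the log2 scale (adjusted p = 9.63e-08, 6.84e-25 and 4.99e-23). Hmgcs1 and Sqle, likewise enzymes of the route, were at low counts and not called (log2 -0.99 ± 0.79 and -0.48 ± 0.34, adjusted p = 0.373 and 0.297).

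Of 20 sterol control genes tested (25 listed), 8 were lower and 3 higher, the latter near the share over all genes. Insig1, which retains the SREBP escort protein in the endoplasmic reticulum and is an SREBP target, had 484, 544 and 555 CPM with PDGF and 135, 103 and 103 CPM with rapamycin (a fall by 2.21 ± 0.07 on the log2 scale, adjusted p = 1.89e-31). The sterol carrier gene Stard4 and Tmem97 fell by 1.87 ± 0.09 and 1.01 ± 0.09 (adjusted p = 8.84e-23 and 1.41e-15). Soat1, which esterifies cholesterol for storage, rose by log2 0.82 ± 0.09 (adjusted p = 2.16e-12), as did Lpin2, a phosphatidate phosphatase gene, by 0.83 ± 0.10 (adjusted p = 1.54e-10). The genes of the regulators were not called: Srebf1, Srebf2 and Scap had log2 changes of -0.47 ± 0.73, -0.16 ± 0.08 and -0.15 ± 0.08 (adjusted p = 0.677, 0.148 and 0.16). With library-size scaling Srebf2 and Scap were called lower (adjusted p = 0.00368 and 0.00456).

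Genes of fatty acid desaturation and elongation fell. Of 18 fatty acid synthesis genes tested (28 listed), 10 were lower and 1 higher, with a median log2 change of -0.62. Scd2, a desaturase, had 3890, 4267 and 4155 CPM with PDGF and 976, 1022 and 983 CPM with rapamycin, a fall by 2.05 ± 0.05 on the log2 scale (adjusted p = 1.64e-44). The elongases Elovl6 and Elovl5 fell by 1.28 ± 0.10 and 0.74 ± 0.07, the desaturase Fads2 by 0.84 ± 0.06 and the citrate carrier Slc25a1 by 1.33 ± 0.14 (adjusted p = 1.75e-18, 2.67e-14, 2.13e-18 and 1.76e-12). Fasn, which encodes the synthase, was not called (log2 -0.31 ± 0.19, adjusted p = 0.224). Lpl, lipoprotein lipase, and Dgat1, a triglyceride synthesis enzyme, fell by 2.37 ± 0.37 and 1.88 ± 0.37 (adjusted p = 1.59e-07 and 2.32e-05).

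**Figure D5:**
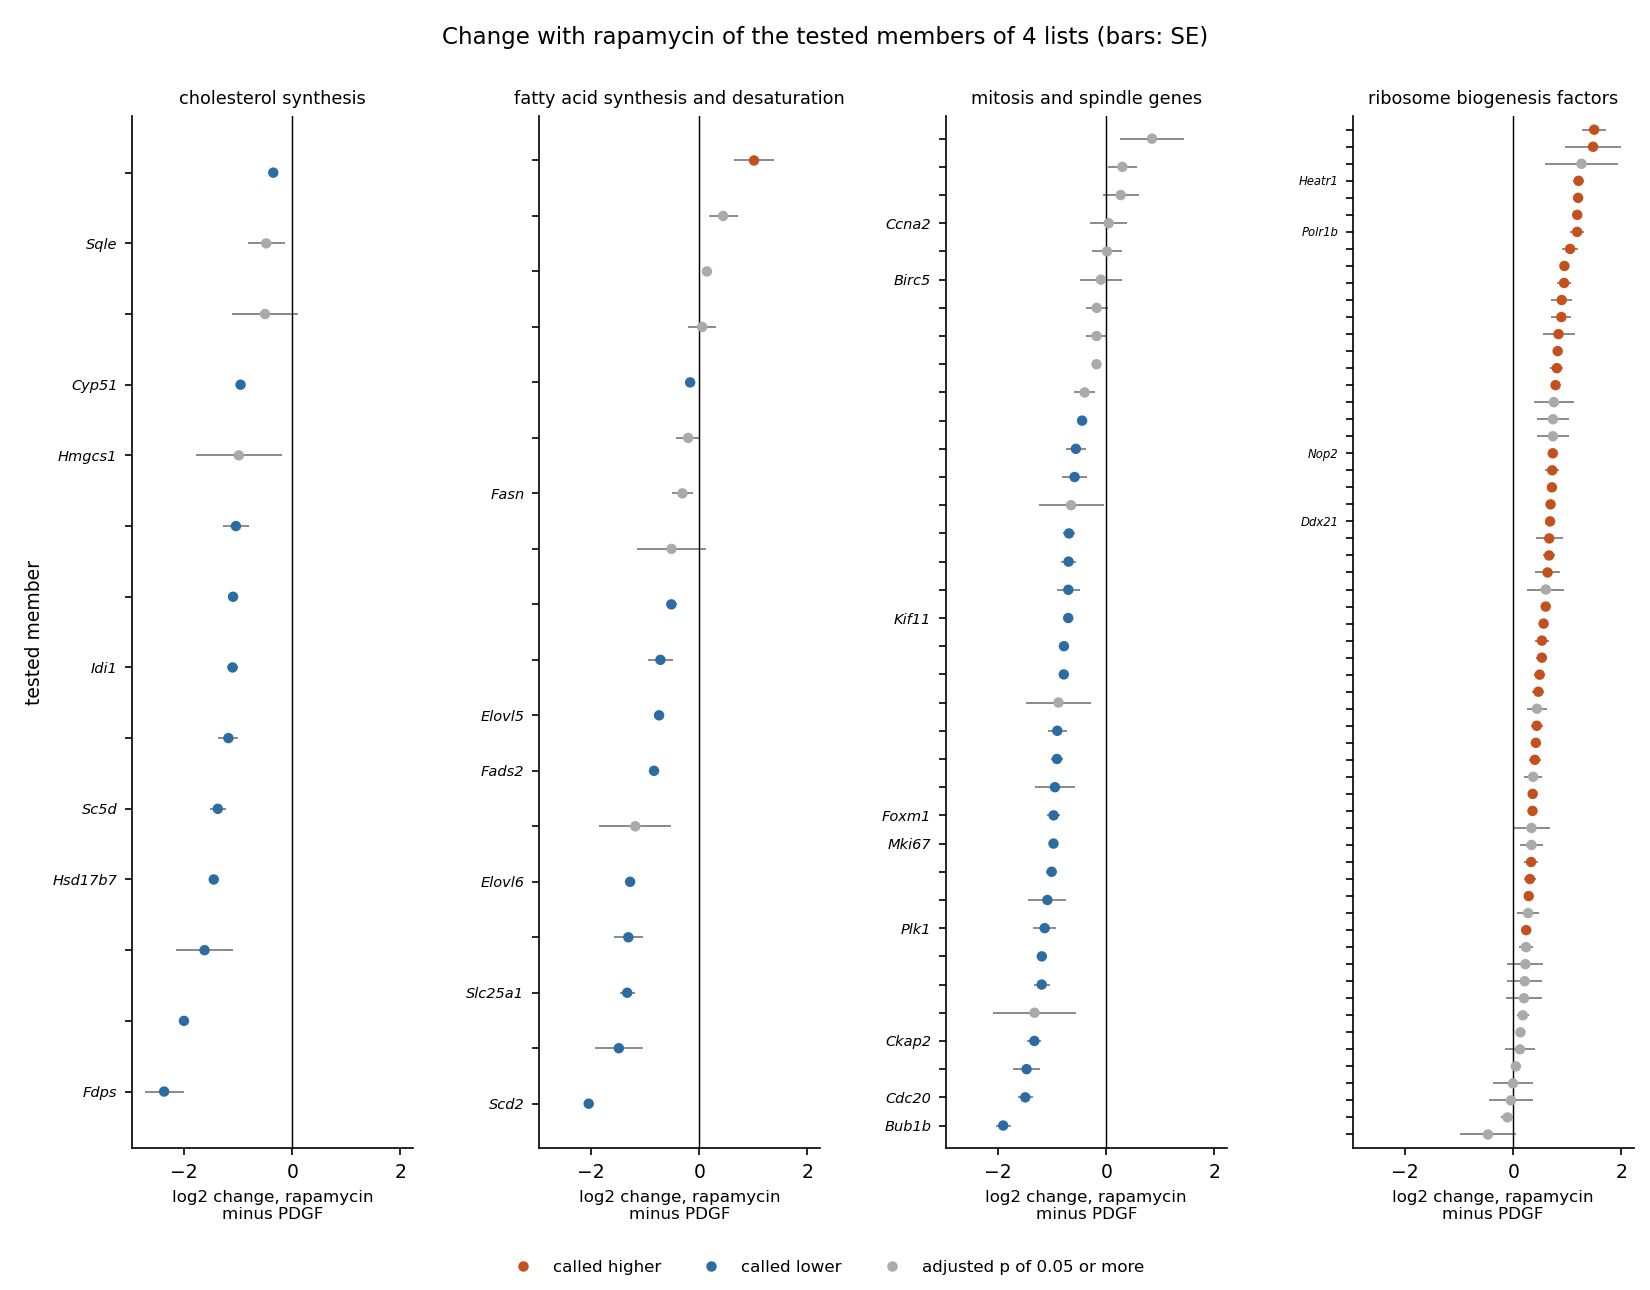
Log2 change with rapamycin (x axis) of every tested member (y axis) of 4 lists; bars are SE, orange is called higher, blue called lower and grey not called, and names are given for members named in the text. All tested cholesterol synthesis members lie left of 0, mitosis members are called only to the left and ribosome biogenesis members only to the right.

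Of the drug's own pathway, Mtor was not called (log2 -0.11 ± 0.09, adjusted p = 0.381, or 0.0265 with library-size scaling), nor was the mTORC1 scaffold gene Rptor (log2 -0.03 ± 0.45, adjusted p = 0.967). Fkbp1a had 7.99, 9.05 and 8.7 CPM with PDGF and 17.8, 12 and 17.8 CPM with rapamycin (log2 0.89 ± 0.28, adjusted p = 0.00886, or 0.0552 without rapamycin replicate 3). Among 32 tested components and nutrient sensors (46 listed), 6 were higher, or 3 without rapamycin replicate 3, and 8 were lower. Over all tested genes the shares were 16.3% and 16.1%. Castor2, of the arginine sensor family, had 28.4, 37.2 and 30.2 CPM with PDGF and 3.62, 9.54 and 11.2 CPM with rapamycin and fell by 1.96 ± 0.20 on the log2 scale (adjusted p = 4.21e-12). Fnip1 and Fnip2, partners of folliculin in lysosomal amino acid signalling, fell by 0.77 ± 0.06 and 1.03 ± 0.17, and the stress-induced mTORC1 inhibitor Ddit4 by 0.96 ± 0.14 (adjusted p = 4.51e-18, 1.28e-06 and 0.000208). The translation repressor gene Eif4ebp1, whose protein mTORC1 phosphorylates, rose by log2 0.73 ± 0.17, and Rictor, which defines mTORC2, by 0.38 ± 0.06 (adjusted p = 0.000353 and 1.58e-06).

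Insulin, IGF and PI3K-AKT genes were lower in 10 of 25 tested (36 listed) and higher in 2. Irs1, the insulin receptor substrate, stood at 247 ± 12.2 CPM in starved cells and had 64.2, 57.1 and 47.6 CPM with PDGF and 27.3, 18.5 and 22.3 CPM with rapamycin. It was thus lower with PDGF than without and lower again with rapamycin, by 1.3 ± 0.14 on the log2 scale (adjusted p = 4.44e-12). Irs2 and Igf1r had the same order with smaller changes of log2 -0.39 ± 0.06 and -0.30 ± 0.06 (adjusted p = 1.22e-07 and 0.000101). The PI3K inhibitor gene Pik3ip1 and the regulatory subunit gene Pik3r3 fell by 1.11 ± 0.21 and 1.01 ± 0.13 (adjusted p = 1.16e-05 and 1.88e-09). Phlpp1, a phosphatase gene acting on AKT, rose by log2 0.49 ± 0.08 (adjusted p = 6.19e-07).

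FOXO factors are transcription factors that AKT keeps out of the nucleus. Of 23 tested factors and targets (29 listed), 10 were lower and 5 higher. The antiproliferative gene Tob1 had 110.2, 129 and 115 CPM with PDGF and 33.4, 27.7 and 32.3 CPM with rapamycin, and its relative Tob2 went from 891 ± 20.2 to 412 ± 21.7 CPM (falls by 1.92 ± 0.09 and 1.11 ± 0.06 on the log2 scale, adjusted p = 1.71e-28 and 3.36e-27). Cdkn1b, the CDK inhibitor p27, fell by 0.96 ± 0.12, and the atrophy ubiquitin ligase Fbxo32 by 0.62 ± 0.16 (adjusted p = 5.46e-10 and 0.00147). Bcl2l11, a pro-apoptotic member of the BCL2 family, rose instead by log2 1.68 ± 0.15, from 16.1 ± 2.44 to 51.5 ± 2.41 CPM (adjusted p = 6.7e-15).

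Mitotic genes fell. Of 36 tested (62 listed), 23 were lower and none higher, with a median log2 change of -0.74. Bub1b, a spindle checkpoint kinase, had 76, 69.3 and 74.4 CPM with PDGF and 25.6, 20.6 and 13.1 CPM with rapamycin (a fall by 1.91 ± 0.14 on the log2 scale, adjusted p = 3.55e-19). Cdc20, the activator of the anaphase-promoting complex, had 66.7, 81.4 and 67.7 CPM with PDGF and 28.7, 23.4 and 24.2 CPM with rapamycin and fell by 1.5 ± 0.14 (adjusted p = 3.5e-14). The transcription factor gene Foxm1, the kinase gene Plk1 and the motor gene Kif11 fell by 0.97 ± 0.13, 1.14 ± 0.21 and 0.70 ± 0.08 (adjusted p = 1.36e-09, 1.22e-05 and 4.11e-11). Starved cells had 84.6 ± 9.24 CPM of Bub1b and 34.5 ± 6.71 CPM of Plk1. Cyclin A2, Ccna2, and the chromosomal passenger gene Birc5 were not called (log2 0.04 ± 0.34 and -0.10 ± 0.39, adjusted p = 0.94 and 0.883).

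DNA replication genes were lower in 12 of 28 tested (55 listed) and higher in 2. The helicase subunit gene Mcm4 had 113, 115 and 114 CPM with PDGF and 55.1, 67 and 41.1 CPM with rapamycin (a fall by 1.08 ± 0.11 on the log2 scale, adjusted p = 4.51e-12). The polymerase gene Pole fell by 0.97 ± 0.22 (adjusted p = 0.000238). Tk1, thymidine kinase, rose instead, with 20.9, 16.3 and 22.2 CPM with PDGF and 44, 42.1 and 48 CPM with rapamycin (log2 1.17 ± 0.18, adjusted p = 1.13e-07), and Pold2, a polymerase subunit gene, by 1.02 ± 0.19 (adjusted p = 8.44e-06). Pcna and Mcm10 were not called (log2 -0.27 ± 0.37 and -0.03 ± 0.48, adjusted p = 0.628 and 0.975). Of G1 regulators, 7 of 20 tested (29 listed) were lower and 3 higher. Ccnd1, cyclin D1, went from 60.8 ± 6.66 to 36.3 ± 5.64 CPM, and fell by 0.73 ± 0.13 on the log2 scale (adjusted p = 2.08e-06). Ccnd2, cyclin D2, was not called (log2 -0.08 ± 0.06, adjusted p = 0.307, or 0.00167 with library-size scaling). The INK4 family inhibitor Cdkn2c fell by 1.21 ± 0.17 on the log2 scale, while Cdk6 and the CDK inhibitor Cdkn1a rose by log2 0.87 ± 0.08 and 1.97 ± 0.43 (adjusted p = 2.25e-08, 2.01e-14 and 0.000134).

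Ribosome biogenesis factors, which process and assemble pre-ribosomes in the nucleolus, rose. Of 60 tested (76 listed), 38 were higher and none lower, with a median log2 change of 0.55. Heatr1, needed for pre-rRNA transcription and processing, had 89.5, 95.4 and 86 CPM with PDGF and 212, 204 and 210 CPM with rapamycin (log2 1.21 ± 0.09, adjusted p = 7.45e-18). The RNA helicase gene Ddx21 had 1682, 1677 and 1684 CPM with PDGF and 2634, 2690 and 2769 CPM with rapamycin, and starved cells had 718 ± 13 CPM. Its rise was log2 0.68 ± 0.05, and that of the rRNA methyltransferase gene Nop2 was 0.73 ± 0.07 (adjusted p = 2.14e-18 and 2.15e-14). RNA polymerase I and III genes followed in 9 of 23 tested (37 listed), with 3 lower. Polr1b, the second-largest polymerase I subunit, and Polr1a, the largest, rose by log2 1.18 ± 0.13 and 0.81 ± 0.16, and the initiation factor gene Rrn3 by 0.36 ± 0.06 (adjusted p = 2.21e-12, 4.18e-05 and 5.01e-06). The polymerase III subunit gene Polr3k fell by 0.98 ± 0.18 (adjusted p = 6.45e-06). The lower level of the rRNA-annotated CT010467.1 in these libraries is given above, and its part here was not tested.

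Ribosomal protein genes themselves were mostly not called: of 55 tested (84 listed), 5 were higher and 2 lower, with a median log2 change of 0.31. The higher count was 3 without rapamycin replicate 1 or PDGF replicate 1, and 2 without PDGF replicate 3, with library-size scaling, with no filter on low counts, or when each gene was counted by its transcript with the most reads. Rplp1 had 5072, 5471 and 5739 CPM with PDGF and 4258, 3976 and 3804 CPM with rapamycin, and Rps20 went from 42.7 ± 1.87 to 20.6 ± 4.45 CPM. These were falls by 0.44 ± 0.08 and 1.03 ± 0.16 on the log2 scale (adjusted p = 0.000188 and 1.2e-07). Rpl4 rose by log2 0.62 ± 0.10 (adjusted p = 2.55e-07). The summed level of the list was 7584 to 8473 CPM with PDGF and 6450 to 7118 CPM with rapamycin, and Rplp1 made up most of it. The other ribosomal protein genes thus had few reads. Whether reads shared by several transcripts were dropped for them was not tested, and a missing call there does not show a stable level. Translation factors were higher in 20 of 62 tested (68 listed) and lower in 7, but library-size scaling left 9 higher, and leaving out rapamycin replicate 2 or 3 or PDGF replicate 2 or 3, dropping the filter on low counts, or counting genes by their transcript with the most reads left 13. Eif3m, an initiation factor subunit gene, rose by log2 0.82 ± 0.11 (adjusted p = 9.05e-09). Eef2k, the kinase that inhibits elongation and is itself restrained by mTORC1 signalling, went from 23.6 ± 2.33 to 10.4 ± 2.34 CPM (a fall by 1.17 ± 0.21, adjusted p = 6.29e-06).

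ATF4 is a transcription factor of amino acid synthesis and stress whose translation depends in part on mTORC1. Of its 22 tested targets (26 listed), 7 were lower and 4 higher. Chac1, a glutathione-degrading enzyme, and the pseudokinase gene Trib3 stood at 188 ± 17.1 and 303 ± 18.8 CPM in starved cells. Chac1 had 615, 688 and 663 CPM with PDGF and 435, 364 and 396 CPM with rapamycin, and Trib3 went from 953 ± 43.8 to 614 ± 10.2 CPM (falls by 0.72 ± 0.11 and 0.64 ± 0.07 on the log2 scale, adjusted p = 0.000123 and 7.35e-12). The hormone gene Fgf21 and Cth, of cysteine synthesis, fell by 1.91 ± 0.34 and 1.08 ± 0.25 (adjusted p = 4.62e-06 and 0.000305). The asparagine synthetase gene Asns and Atf4 itself were not called (log2 1.08 ± 0.54 and -0.85 ± 0.59, adjusted p = 0.122 and 0.289). Of 21 amino acid transporters tested (30 listed), 4 were higher and 4 lower, near the shares over all genes. The cystine and arginine transporter genes Slc7a11 and Slc7a1 were among the higher ones (log2 0.83 ± 0.09 and 0.60 ± 0.06, adjusted p = 3.29e-11 and 2.89e-14).

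Lysosomal genes were lower in 15 of 45 tested (58 listed) and higher in 4, the latter being 2 without rapamycin replicate 3 or PDGF replicate 1 or with no filter on low counts, and 1 with library-size scaling. Naglu and Neu1, hydrolases of glycan breakdown, went from 49.8 ± 10.3 to 21 ± 4.2 and 18.7 ± 2.02 to 7.61 ± 2.6 CPM (falls by 1.26 ± 0.15 and 1.28 ± 0.23 on the log2 scale, adjusted p = 1.01e-10 and 3.19e-06). The calcium channel gene Mcoln1 fell by 1.02 ± 0.18 (adjusted p = 4.3e-06). Mitf, of the transcription factor family that drives lysosomal genes, had 54.5, 56.3 and 59 CPM with PDGF and 93.9, 94.4 and 102 CPM with rapamycin (log2 0.77 ± 0.11, adjusted p = 2.8e-08). Ctsl, a protease of the lysosome, was not called (log2 0.25 ± 0.27, adjusted p = 0.517). Autophagy genes had 3 of 29 tested (39 listed) higher and 5 lower, or 11 lower with library-size scaling. Over all tested genes, 16.3% were higher and 16.1% lower. The autophagy kinase gene Ulk1 fell by 0.33 ± 0.09 and the phosphoinositide-binding gene Wipi2 rose by log2 0.43 ± 0.06 (adjusted p = 0.00379 and 6.17e-09), and Sqstm1 and Map1lc3b were not called (adjusted p = 0.255 and 0.647).

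Matrix genes moved in both directions. The chains of type I collagen fell: Col1a1 had 3546, 3728 and 3776 CPM with PDGF and 2076, 2179 and 2253 CPM with rapamycin, and Col1a2 went from 2466 ± 29.3 to 1570 ± 155 CPM (falls by 0.76 ± 0.05 and 0.65 ± 0.05 on the log2 scale, adjusted p = 8.85e-21 and 9.16e-17). Col3a1 was not called (log2 0.09 ± 0.06, adjusted p = 0.283). Col5a3 and Col6a1 rose by log2 1.15 ± 0.07 and 0.58 ± 0.05 (adjusted p = 2.32e-23 and 1.42e-14). In all, 8 of 21 tested collagen genes (44 listed) were higher, or 5 without rapamycin replicate 1 or by their transcripts with the most reads, and 6 were lower. Among 33 tested matrix assembly genes (49 listed), 11 were higher and 5 lower. The proteoglycan gene Dcn had 13.5, 14 and 7.25 CPM with PDGF and 67.7, 71 and 76.7 CPM with rapamycin (log2 2.66 ± 0.20, adjusted p = 1.52e-18), and the matricellular gene Tnc went from 48.6 ± 13.5 to 197 ± 12.2 CPM, a rise by log2 2.02 ± 0.14 (adjusted p = 1.03e-16). Pcolce, which speeds procollagen cleavage, fell by 3.00 ± 0.43 (adjusted p = 2.26e-08).

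Among matrix proteases and their inhibitors, 9 of 17 tested (35 listed) were lower and 3 higher. The collagenase gene Mmp13 had no reads with PDGF and 98 with rapamycin, at least 36.4-fold higher against a floor of 3 reads over the group, and the gelatinase gene Mmp9 rose by log2 2.33 ± 0.23 (adjusted p = 1.61e-13). Mmp14, the membrane protease that activates the product of Mmp2, and the inhibitor Timp2 fell by 0.59 ± 0.06 and 0.49 ± 0.05 (adjusted p = 8.12e-12 and 1.53e-12). Of contractile genes, Tpm1 had 32.2, 20.7 and 21.1 CPM with PDGF and 108, 92.6 and 101 CPM with rapamycin (log2 2.04 ± 0.15, adjusted p = 2.3e-19), while smooth muscle actin, Acta2, fell by 1.11 ± 0.09 and calponin 2, Cnn2, by 0.84 ± 0.10 (adjusted p = 1.86e-16 and 3.02e-10).

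Mitochondrially encoded genes were higher in 8 of 12 tested (13 listed) and lower in none, with a median log2 change of 0.38; mt-Co1, a cytochrome oxidase subunit, went from 31810 ± 973 to 40440 ± 2701 CPM (adjusted p = 2.16e-08). These libraries also held a larger mitochondrial share of counts, as given above, and its part was not tested. Nuclear genes of oxidative phosphorylation were higher in 3 of 46 tested (87 listed) and lower in 8, against 16.3% and 16.1% of all tested genes. Ppargc1a, the coactivator PGC-1-alpha of mitochondrial biogenesis, had 20.6, 27.9 and 20.3 CPM with PDGF and 3.62, 3.38 and 4.28 CPM with rapamycin (a fall by 2.59 ± 0.26 on the log2 scale, adjusted p = 1.47e-13). The mitochondrial transcription factor gene Tfb2m rose by log2 1.11 ± 0.22 (adjusted p = 4.36e-05).

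Among abundant genes, several of the largest falls were in genes of chromatin and transcription. The linker histone gene Hist1h1c had 89.5, 107 and 100.5 CPM with PDGF and 10.6, 13.8 and 15 CPM with rapamycin. The groups did not overlap, with a fall by 2.91 ± 0.11 on the log2 scale (adjusted p = 1.02e-33). The RNA was poly(A)-selected, so these counts cover only polyadenylated transcripts of Hist1h1c. Hoxa5 and Zfp503, transcription factor genes, and Tent5b, a poly(A) polymerase gene, fell by 2.21 ± 0.12, 2.26 ± 0.12 and 2.14 ± 0.16 (adjusted p = 2.95e-25, 4.41e-26 and 3.58e-17). Starved cells had more of these 3, at 176 ± 8.67, 218 ± 28.7 and 206 ± 26.9 CPM. Among scarcer genes, Serpinb9g, a serpin, fell from 102 reads over the PDGF libraries to 4 (adjusted p = 7.18e-10), Nap1l2 from 41 to 2 and the clock output gene Dbp from 15 to 1. The CPM ratios of Nap1l2 and Dbp were 0.0544 (95% counting interval 0.00638 to 0.21) and 0.0744 (0.00177 to 0.483). On the rising side, the scavenger receptor gene Olr1 had 1.38, 0 and 0.829 CPM with PDGF and 31.2, 28.6 and 35.1 CPM with rapamycin, the growth regulator Slfn2 went from 0.718 ± 0.147 to 15.1 ± 4.4 CPM and the niacin receptor Hcar2 from 0.5 ± 0.656 to 10.3 ± 0.521 CPM (log2 5.39 ± 0.43, 4.33 ± 0.55 and 4.15 ± 0.64, adjusted p = 3.48e-17, 8.18e-10 and 1.86e-07). Arxes1 had 13 reads with PDGF and none with rapamycin, at least 3.89-fold lower, and Rbm20 7 and none, at least 2.09-fold lower. The call of Rbm20 was lost without any 1 of the rapamycin replicates (adjusted p 0.0608 to 0.0769) and without PDGF replicate 3 (0.188). It was also lost with limma-voom (0.124), with no filter on low counts (0.0661) and for its transcript with the most reads (0.111).

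Circadian clock genes were lower in 8 of 17 tested (21 listed) and higher in 1. Bhlhe41, a repressor of the clock, went from 5.93 ± 1.11 to 2.35 ± 1.19 CPM and the nuclear receptor gene Rora fell by 0.70 ± 0.12 on the log2 scale (adjusted p = 0.00252 and 1.95e-06), while Arntl, which encodes BMAL1, was not called (log2 -0.03 ± 0.42, adjusted p = 0.964). Regulators of BMP and TGF-beta signalling were higher in 9 of 22 tested (33 listed) and lower in 3. Tgif1, a repressor of SMAD targets, had 78.5, 76.5 and 75 CPM with PDGF and 189, 169.5 and 210.2 CPM with rapamycin (log2 1.31 ± 0.11, adjusted p = 5.91e-17), and the signal transducer gene Smad3 rose by log2 0.66 ± 0.06 (adjusted p = 5.4e-16). Smad9, of the BMP branch, fell by 1.87 ± 0.42 (adjusted p = 0.000364). The hypoxia-inducible Ndrg1 and hexokinase gene Hk2, both higher with PDGF than without, rose by log2 1.21 ± 0.06 and 0.78 ± 0.09 (adjusted p = 2.26e-28 and 2.22e-11), and Odc1, the first enzyme of polyamine synthesis, by 1.27 ± 0.18 (adjusted p = 8.29e-09). Of 16 tested hypoxia targets (21 listed), 3 were higher and 4 lower, against 16.3% and 16.1% of all tested genes. The lower count was 2 without rapamycin replicate 1 or any 1 of the PDGF replicates. Of 18 tested glycolysis and glucose uptake genes (28 listed), Hk2 among them, 2 were higher and 4 lower, with a median log2 change of -0.27. Their lower count was 2 without rapamycin replicate 3 or PDGF replicate 2.

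Transcripts as deposited gave 1726 of 13116 tested higher (13.2%) and 1840 lower (14%). Of the 2115 genes with at least 2 tested transcripts, 15 had transcripts called in opposite directions. Son, a splicing cofactor, was one: its protein-coding transcript Son-201 went from 79.1 ± 7.58 to 57.8 ± 7.24 CPM and Son-213, annotated as retained intron, from 8.04 ± 2.19 to 16.1 ± 3.01 CPM (log2 -0.49 ± 0.11 and 0.98 ± 0.25, adjusted p = 0.00015 and 0.00131). For the splicing factor gene Srsf2, the coding Srsf2-201 changed by log2 -0.69 ± 0.14 and the retained-intron Srsf2-203 by 0.72 ± 0.27 (adjusted p = 2.84e-05 and 0.0329). Nfe2l2, the NRF2 gene, had its coding Nfe2l2-201 higher (log2 0.59 ± 0.06) and the processed transcript Nfe2l2-202 lower (log2 -0.85 ± 0.16, adjusted p = 3.38e-14 and 1.08e-05). These 3 were chosen from the 15 after their values were seen. Among the rest, Pgd, Plekhn1 and Zfand5 had the directions of Son and Srsf2. Eprs and Pkd2 had the reverse, a coding transcript higher and a retained-intron transcript lower. Camk2d had retained-intron transcripts called both ways.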

How the data were processed

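RNA was sequenced from 15 libraries, 3 in each of 5 groups. The deposited files hold raw counts per mouse transcript, with no normalization by the authors. HTSeq 0.9.1, HISAT2 2.2.1 and R 4.1.0 appear in the submitters' processing notes, with the human assembly hg38, although the identifiers are of mouse transcripts; the mouse build is not stated in the labels used here. How reads shared by several transcripts were counted is not stated either. Transcripts were matched to GENCODE M21 (GRCm38), from which gene names and coordinates come: 141536 of 142446 matched, and the other 910 held 0.0309% of the counts and were dropped. Sums were taken over 55266 genes.

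Genes passing edgeR's filterByExpr, 10603 in all, were fitted in R 4.3.3 with edgeR 4.0.16 (TMM factors 0.909 to 1.225, group-mean design over all 15 libraries, 10 residual degrees of freedom, robust quasi-likelihood test), and p-values were adjusted by Benjamini-Hochberg over all of them. The procedure was tested on simulated data. DESeq2 1.42.0, limma-voom (limma 3.58.1), other scalings, no filter on low counts, the 6 compared libraries alone, a replicate block, leaving out each library and single transcripts were alternatives. Counting intervals are exact at 95% and, like floors of 3 reads over a group, cover counting error only.

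The comparison, the 54 gene lists and the 6 marker lists were chosen with earlier results of these data known. Genes were named as the 12 largest rises and falls without overlap (mean log2 CPM of at least 1), the 6 largest each way among abundant genes (at least 7), the 4 most significant of each list, and members whose role is described; some of these genes are not reported here. The mean log2 CPM of this rule is over all 15 libraries of the series. CT010467.1 and the transcripts of Son, Srsf2 and Nfe2l2 were chosen after their values were seen.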

Additional observations from a re-analysis of the deposited data

How the results depend on the processing

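The counts of 1724 genes higher and 1706 lower stayed within 1.5 times under every alternative run. DESeq2 gave 1649 and 1633, limma-voom 1718 and 1542, RLE size factors 1720 and 1708, no filter on low counts 1315 and 1678, and counting a gene by its transcript with the most reads 1410 and 1731. Library-size scaling gave 1260 and 2265, so that 35.7% of the calls were higher in place of 50.3%. Leaving out 1 library at a time gave 1415 to 1600 higher and 1443 to 1594 lower. With the replicate number as a block, 1732 genes were higher and 1712 lower. The deviations of same-numbered libraries from their group means correlated at 0.042, 0.041 and 0.005, so the numbers were not taken as pairs, although each rapamycin library correlated best with its own number. Over 326 named genes and all alternatives, 4810 of 4873 values kept their call, 58 lost it, 5 gained one and none reversed. Totals of 3494761 to 4721169 counts limit the precision for genes with few reads, and a gene that was not called is not shown to be unchanged.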

Other observations

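Most called genes of ER protein folding were lower. Of 21 tested genes of the unfolded protein response and of ER folding (25 listed), 2 were higher and 8 lower with rapamycin. The disulfide isomerase gene Pdia4 had 165, 202 and 211 CPM with PDGF and 117, 132 and 106 CPM with rapamycin, a fall by 0.71 ± 0.09 on the log2 scale, and the stress sensor gene Eif2ak3 fell by 0.76 ± 0.20 (adjusted p = 1.34e-10 and 0.0016). Ern1, the IRE1 sensor gene, rose by log2 0.63 ± 0.09 (adjusted p = 5.03e-09). Of 18 tested cytosolic heat shock genes (21 listed), 4 were higher and 3 lower, against 16.3% and 16.1% of all tested genes. The co-chaperone gene Stip1 went from 887 ± 17 to 1497 ± 77.5 CPM (log2 0.76 ± 0.06, adjusted p = 5.92e-19). NRF2 targets had 5 of 17 tested (19 listed) higher and 5 lower, or 3 lower without PDGF replicate 3, with the efflux pump gene Abcc1 at 66.9, 65.7 and 67.1 CPM with PDGF and 224, 193 and 213 CPM with rapamycin (log2 1.66 ± 0.10, adjusted p = 9.39e-24). The death receptor gene Fas rose by log2 2.34 ± 0.57 (adjusted p = 0.000714), and 5 of 17 tested p53 targets (20 listed) were higher and 2 lower.

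Several regulators outside the groups above changed too. Cebpd, of the C/EBP family, had 481, 571 and 471 CPM with PDGF and 981, 993 and 1011 CPM with rapamycin (log2 0.97 ± 0.09, adjusted p = 6.47e-08), and Dlk1, an inhibitor of adipogenesis, went from 36.9 ± 3.97 to 8.53 ± 4.23 CPM, a log2 fall by 2.13 ± 0.24 (adjusted p = 7.26e-12). Mxi1 and Mxd4, antagonists of MYC, fell by 1.31 ± 0.30 and 0.75 ± 0.13 (adjusted p = 0.000296 and 5.21e-06), and 3 of 7 tested genes of that network (13 listed) were lower and none higher. YAP and TEAD targets had 5 of 16 tested (21 listed) higher, or 3 without rapamycin replicate 1 or PDGF replicate 2, and 3 lower, with the stress gene Gadd45b at 22.9, 31.5 and 28.8 CPM with PDGF and 116, 141 and 136 CPM with rapamycin (log2 2.23 ± 0.12, adjusted p = 2.03e-26). Mitochondrial ribosomal protein genes were mostly not called, with 5 of 55 tested (78 listed) higher and 3 lower. Without rapamycin replicate 3, PDGF replicate 1 or PDGF replicate 2, 3 were higher; with library-size scaling 3 were higher and 5 lower, and with no filter on low counts 2 were higher. That higher count was 3 without rapamycin replicate 3, PDGF replicate 1 or PDGF replicate 2.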
